A study of Mus musculus with 23 samples.

Results

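Nuclear receptors are transcription factors that carry, in most members, a DNA-binding domain and a pocket for a small lipophilic ligand such as a steroid, a retinoid, an oxysterol or thyroid hormone. Many bind DNA as a heterodimer with a retinoid X receptor, and ligand exchanges corepressors of the NCoR family for coactivators such as the p160 proteins and CBP. Orphan members have no agreed natural ligand, and among them NR2F6 and its paralogs NR2F1 and NR2F2, the COUP transcription factors, mostly act as repressors.

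The receptors described here were the 47 mouse nuclear receptor genes found by symbol among the 47643 genes of a table of TPM, transcript abundances scaled to a fixed total per library, and all 47 were found. The table covered 23 RNA-seq libraries of B16F10, a transplantable melanoma cell line of C57BL/6 mice, 18 of them prepared from bulk subcutaneous tumors, from tumor cells sorted out of such tumors, and from cultured cells. Each of these 3 sample types had 2 control libraries labelled wild type for NR2F6, 2 edited with the guide sg492 and 2 edited with the guide sg495, both directed at Nr2f6 and labelled NR2F6 KO. Editing used Cy3-labelled guide RNA with Cas9 protein followed by sorting of Cy3-positive cells, so each edited population was a pool for which no single-cell cloning is described. Only the melanoma cells were edited, and the host cells of a tumor kept an intact Nr2f6 gene. The other 5 libraries were labelled wild type and either IgG control (2 libraries) or anti-PD1 (3 libraries), with no sample type in their labels. The labels do not say whether libraries of a group came from separate animals or cultures, so p-values measure only the spread between these libraries. In bulk tumors, fewer cells of a type and less RNA per cell cannot be told apart.

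TPM are scaled for transcript length and for the library and keep no read total, so the depth behind a single value is unknown. Between 23 and 28 receptors reached 1 TPM in a library. Markers of host cells separated the sample types: the summed level of 9 macrophage markers lay between 468 and 996 TPM in bulk tumors, between 4.40 and 13.5 TPM in sorted tumor cells and between 2.26 and 6.17 TPM in cultured cells, with Adgre1 (F4/80) and C1qa at 0 in every cultured library. The 7 leukocyte markers summed to between 165 and 442 TPM in bulk tumors and to at most 7.58 TPM in sorted or cultured cells. The 8 melanocyte markers were all detected in each of the 18 libraries of the 3 sample types and summed to between 14867 and 17889 TPM there.

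By their levels, 23 of the 47 receptors reached 1 TPM in each of the 6 cultured libraries and are called melanoma-expressed here. A further 2, Nr1h3 and Pparg, were host-associated, with a mean of at least 1 TPM in bulk tumors and means in sorted and cultured cells of at most 0.25 of it. Vdr, the vitamin D receptor, was above 1 TPM on average in bulk and sorted samples (medians 1.28 and 1.11 TPM) and between 0.25 and 0.66 TPM in cultured cells. The remaining 21 receptors were low. These classes rest on fixed thresholds and carry no test. With a threshold of 2 TPM in place of 1 TPM, Vdr became low, and Nr4a2 (at least 1.84 TPM in cultured cells) and Nr6a1 (at least 1.27 TPM) left the melanoma-expressed class.

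**Figure D1:**
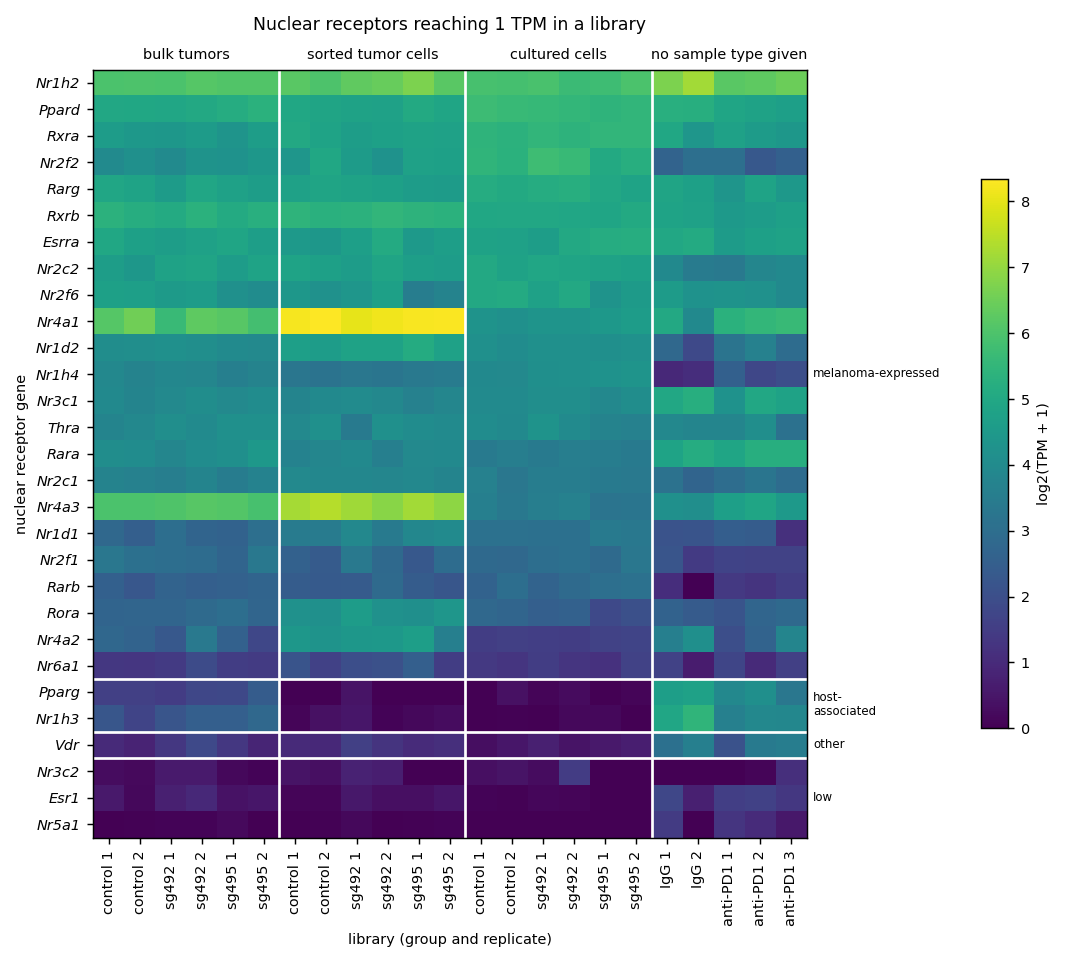
Heat map of log2(TPM + 1) for each receptor (rows, ordered by class and then by mean level in cultured cells) that reached 1 TPM in any of the 23 libraries (columns, by group and replicate). White lines part the classes and the sample types; Nr4a1 and Nr4a3 are brightest in the 6 sorted libraries, and Pparg and Nr1h3 are dark in the sorted and cultured libraries and bright in the 5 IgG and anti-PD1 libraries.

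The receptor with the highest mean level in cultured cells was Nr1h2 (LXRβ, an oxysterol sensor), at 57.0 ± 4.54 TPM (SD, n = 6 libraries over the 3 genotype groups). Ppard, a fatty acid-activated receptor, Rxra, the heterodimer partner RXRα, and Nr2f2 followed at 46.3 ± 3.61, 42.5 ± 1.84 and 42.1 ± 7.56 TPM. The ranges of these 3 overlapped, from 41.7 to 52.0, 39.6 to 44.1 and 32.9 to 53.2 TPM. Differences between these genes were not tested. The lowest Nr1h2 value, 50.2 TPM, also lay inside the ranges of Ppard and Nr2f2.

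The other partner of the heterodimers, Rxrb, was at 29.1, 30.8 and 32.5 TPM (lowest, median and highest of the 6 cultured libraries), 33.0, 36.7 and 40.2 TPM in bulk tumors, and 38.1, 40.8 and 44.1 TPM in sorted tumor cells. Rxrg did not exceed 0.13 TPM in any library. Among the receptors for all-trans retinoic acid, Rarg was at 27.4, 33.4 and 36.1 TPM in cultured cells, 23.1, 27.1 and 29.7 TPM in bulk tumors, and 22.9, 26.0 and 28.2 TPM in sorted tumor cells. All 3 retinoic acid receptor genes were thus melanoma-expressed, with Rarg the highest and Rarb the lowest in cultured cells. Rara was at 9.71, 10.2 and 11.0 TPM in cultured cells, 13.2, 15.8 and 20.9 TPM in bulk tumors, and 11.1, 13.6 and 14.4 TPM in sorted tumor cells. Rarb had medians of 6.66, 4.92 and 4.30 TPM in the same order.

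Thra, the thyroid hormone receptor α, was at 11.8, 14.9 and 18.5 TPM in cultured cells, 12.6, 15.7 and 17.3 TPM in bulk tumors, and 9.80, 15.3 and 17.4 TPM in sorted tumor cells, whereas Thrb did not exceed 0.21 TPM in any of the 23 libraries. The testicular receptors Nr2c1 and Nr2c2, orphan members of the retinoid X receptor subfamily, were both melanoma-expressed. Nr2c1 was at 8.93, 10.1 and 11.7 TPM in cultured cells, 10.3, 11.9 and 12.4 TPM in bulk tumors, and 12.5, 13.5 and 14.3 TPM in sorted tumor cells. Nr2c2 was at 25.8, 27.7 and 32.0 TPM in cultured cells, 20.5, 25.7 and 28.5 TPM in bulk tumors, and 23.3, 25.2 and 28.3 TPM in sorted tumor cells. The ranges of Thra and of Nr2c2 overlapped between every pair of sample types.

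Nr1h4 (FXR, the bile acid receptor of liver and gut) was also melanoma-expressed. Its levels in control, control, sg492, sg492, sg495 and sg495 libraries were 14.4, 14.2, 16.8, 17.1, 17.9 and 19 TPM in cultured cells. In the same order they were 13.7, 12.2, 13.4, 13.1, 11.1 and 12.4 TPM in bulk tumors. In sorted tumor cells they were 8.63, 7.99, 8.95, 8.36, 9.45 and 9.98 TPM, below every bulk and cultured library. Nr6a1, the germ cell nuclear factor, was the lowest melanoma-expressed receptor, with medians of 1.53 TPM in cultured, 1.71 TPM in bulk and 3.07 TPM in sorted samples.

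Of the 4 receptors that the study carried forward as candidates (Nr2f6, Esrra, Nr1h3 and Nr3c1), all but Nr1h3 were melanoma-expressed. Esrra (ERRα, an orphan receptor of mitochondrial metabolism) was at 27.0, 26.1, 23.9, 31.9, 35.3 and 35.9 TPM in the 6 cultured libraries in the order used above. It was at 30.5, 26.0, 24.1, 26.1, 29.0 and 24.6 TPM in bulk tumors and at 21.9, 20.1, 24.9, 33.0, 21.6 and 24.7 TPM in sorted tumor cells. Its paralogs Esrrb and Esrrg did not exceed 0.09 TPM anywhere. Nr3c1, the glucocorticoid receptor, was at 14.9, 14.9, 16.3, 16.4, 13.9 and 16.1 TPM in cultured cells. It was at 14.5, 12.7, 14.2, 15.9, 14.1 and 15.6 TPM in bulk tumors and at 12.7, 14.5, 15.5, 13.9, 11.8 and 13.3 TPM in sorted tumor cells. All 3 ranges of Nr3c1 overlapped.

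Of the 21 low receptors, 5 (Nr1h5, Hnf4g, Esrrb, Pgr and Nr0b1) were at 0 in all 23 libraries. The receptors of sex steroids and of mineralocorticoids were among the low ones: Esr1 was at most 0.96 TPM in the 18 libraries of the 3 sample types and at most 2.43 TPM in the IgG and anti-PD1 libraries, Esr2 at most 0.03 TPM, and Nr3c2 at most 1.82 TPM, a value reached in a single cultured sg492 library. Nr1i2, the xenobiotic sensor PXR, reached 0.91 TPM in sorted tumor cells. Nr5a2 was between 0.20 and 0.41 TPM in the 6 bulk tumors and at 0 in the 17 other libraries. Thrb, Ppara, Rorb, Nr1i3, Hnf4a, Rxrg, Nr2e1, Nr2e3, Esrrg and Nr0b2 stayed below 0.5 TPM in every library, and Nr5a1 stayed at or below 0.15 TPM in the 18 libraries of the 3 sample types but ranged from 0 to 1.71 TPM in the IgG and anti-PD1 libraries.

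To ask which receptors the host cells contributed, bulk tumors were compared with sorted tumor cells by limma on log2(TPM + 1), with the 3 genotype groups averaged. Calls required 1.5-fold or more and, after Benjamini-Hochberg adjustment, p under 0.05. Of the 25 receptors tested, 1 was higher and 6 were lower in bulk tumors, that is 28.0% called against a background of 13.6% of the 13152 genes tested (9.26% higher and 4.31% lower). The libraries of the 2 sample types did not overlap for 9 of the 25, as for 21.3% of all genes. The median log2 fold change was -0.02 for the receptors and 0.05 for all genes. The receptor higher in bulk tumors was Nr1h3, which passed the limit of 1 TPM for testing only through the bulk tumors, so its call is a description and supports nothing.

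Nr1h3 (LXRα) is abundant in macrophages, liver and fat. Its levels in control, control, sg492, sg492, sg495 and sg495 bulk tumors were 3.73, 2.25, 3.55, 4.74, 4.70 and 6.01 TPM. In sorted tumor cells they were 0.09, 0.30, 0.41, 0.05, 0.14 and 0.20 TPM, and no cultured library exceeded 0.13 TPM. Every bulk library lay above every sorted and cultured library. The mean in bulk tumors was 21 times that in sorted tumor cells. Pparg, the adipocyte and macrophage PPAR, was at 2.02, 2.02, 1.79, 2.39, 2.54 and 4.42 TPM in bulk tumors and was detected in only 1 sorted library, at 0.37 TPM. In cultured cells it was at 0, 0.30, 0.08, 0.19, 0 and 0.09 TPM. Its mean over the 18 libraries fell under the limit of 1 TPM for testing, so it carries no test, but its bulk libraries all lay above the others. The summed level of 6 adipocyte markers was between 5.12 and 16.6 TPM in bulk tumors and between 1.00 and 2.12 TPM in sorted tumor cells, and the summed macrophage and leukocyte markers were also lower there by the ranges given above, so the cell types behind Nr1h3 and Pparg cannot be told apart here.

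Targets of these receptors were read from lists of textbook genes. Several were high only in bulk tumors and passed the filter through them, so they are given as levels, with no test. Among LXR targets, Abcg1, an exporter of cholesterol, was between 3.34 and 7.46 TPM in bulk tumors and at most 0.02 TPM in sorted or cultured cells. Among PPAR targets, Fabp4 was between 49.1 and 62.1 TPM in bulk tumors and at most 0.08 TPM in sorted or cultured cells, Cd36 between 13.9 and 24.3 TPM and at most 0.40 TPM, and Angptl4 between 6.38 and 11.4 TPM and at most 1.2 TPM in these cells. Fabp4 and Cd36 are also abundant in fat, endothelium and macrophages. Ch25h, which makes an oxysterol, was between 2.46 and 5.43 TPM and at most 0.12 TPM. Abca1, another cholesterol exporter, was above 1 TPM in every library of the 3 sample types and was higher in bulk than in sorted samples by 1.23 on the log2 scale. Lists of coactivators (11 tested) and corepressors (9 tested) had 1 call each, both lower in bulk tumors, with log2 fold changes of -0.76 (Ppargc1a) and -0.59 (Nrip1). Of all genes tested, 4.31% were called lower and 9.26% higher in bulk tumors. Of 5 retinoid genes Dhrs3 was higher (1.22), of 6 clock genes Nfil3 (-1.19) and Cry1 (-0.76) were lower, and limma called 0 of 6 ERR targets, with 4 at an unadjusted p below 0.05.

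**Figure D2:**
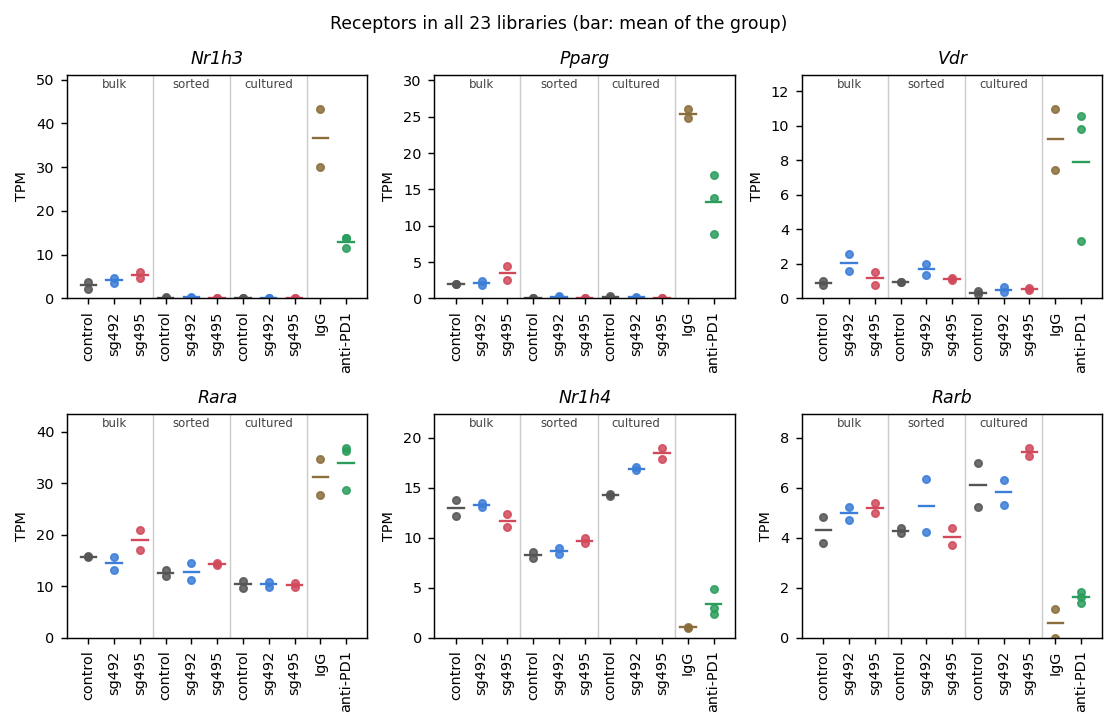
TPM of Nr1h3, Pparg, Vdr, Rara, Nr1h4 and Rarb (y axis, starting at 0) by group (x axis), with a point for each of the 23 libraries and a bar at the group mean. The 5 IgG and anti-PD1 libraries lie above all others for Nr1h3, Pparg, Vdr and Rara and below all others for Nr1h4 and Rarb.

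The IgG and anti-PD1 libraries differed from the bulk tumors in cell content: their macrophage markers summed to between 7206 and 10659 TPM and their leukocyte markers to between 2403 and 5434 TPM, while their melanocyte markers summed to between 1663 and 5026 TPM and their fibroblast markers to at most 83.0 TPM, against 359 to 987 TPM in bulk tumors. Without a sample type in the labels, they are set beside the bulk tumors as values only. Of 27 receptors that averaged 1 TPM or more over these 11 libraries, 6 had all 5 libraries above all 6 bulk tumors, where 13.5% of all genes did, and 11 had all 5 below, where 44% of all genes did. The 6 were Nr1h3, Pparg, Vdr, Rara, Nr1h2 and Nr3c1.

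In the 2 IgG and then the 3 anti-PD1 libraries, Nr1h3 was at 29.9, 43.4, 11.4, 13.9 and 13.7 TPM. Pparg was at 24.8, 26.1, 13.8, 17.0 and 8.92 TPM. Vdr was at 7.43, 11.0, 3.30, 9.85 and 10.6 TPM. All 5 values of each gene were above its highest bulk value. Rara was at 27.8, 34.7, 28.6, 36.3 and 36.8 TPM, and Nr3c1 at 30.9, 36.9, 18.3, 30.7 and 26.9 TPM. Among the 11 lower receptors, Nr1h4 was at 0.96, 1.11, 4.83, 2.39 and 2.99 TPM, Nr2f2 at 5.35, 7.28, 7.19, 3.91 and 4.88 TPM, and Nr2f1 at 3.60, 1.68, 2.23, 2.15 and 2.10 TPM. Nr2f6 itself was at 23.1, 18.1, 18.7, 17.5 and 14.4 TPM, a range that overlapped that of the bulk tumors.

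Between anti-PD1 and IgG libraries, 0 of 27 receptors were called, as were 0% of the 13418 genes tested. At an unadjusted p below 0.05, 7 receptors differed, with 7.18% of all genes doing so, and 12 had libraries that did not overlap, against 25.4% of all genes. The largest difference was that of Nr1h3, lower in all 3 anti-PD1 libraries by a log2 fold change of -1.41 (95% interval -2.01 to -0.81, limma adjusted p = 0.585). Pparg (-0.94, -1.65 to -0.22) and Nr1h2 (-0.62, -1.16 to -0.09) were also below both IgG libraries, and Nr1h4 (1.08), Nr4a1 (1.00), Nr1d2 (0.96) and Nr4a3 (0.56) above them. Of the macrophage markers 4 of 9 were below both IgG libraries in all 3 anti-PD1 libraries (median log2 fold change -0.43), and of the melanocyte markers 3 of 8 were above them (median 0.92); the part of this cell content in the receptor values was not tested. Mitochondrial transcripts took between 8.63% and 21.9% of the TPM in these 5 libraries, against at most 8.02% in the other 18.

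The receptors lower in bulk tumors than in sorted tumor cells were the 3 Nr4a genes, the 2 REV-ERB genes and Rora. The Nr4a genes encode orphan receptors that are induced within an hour by many stimuli as immediate early genes, partly through cyclic AMP response elements (CRE). Their promoters are shown because all 3 genes moved together. Each window spans 250 bases before to 50 bases after the transcription start, from RefSeq on GRCm38.p6, on the strand of the gene. Nr4a1 is at chr15:101266596-101266895 (+ strand), Nr4a2 at chr2:57123954-57124253 (- strand) and Nr4a3 at chr4:48045055-48045354 (+ strand). Capitals mark the CRE half-site TGACG, searched on both strands and thus also written CGTCA.
Nr4a1: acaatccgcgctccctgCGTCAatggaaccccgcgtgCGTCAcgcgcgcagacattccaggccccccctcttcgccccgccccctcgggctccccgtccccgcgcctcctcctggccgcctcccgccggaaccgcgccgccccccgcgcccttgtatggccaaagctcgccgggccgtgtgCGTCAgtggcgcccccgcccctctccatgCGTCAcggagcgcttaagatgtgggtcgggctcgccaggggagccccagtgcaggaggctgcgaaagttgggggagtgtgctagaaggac
Nr4a2: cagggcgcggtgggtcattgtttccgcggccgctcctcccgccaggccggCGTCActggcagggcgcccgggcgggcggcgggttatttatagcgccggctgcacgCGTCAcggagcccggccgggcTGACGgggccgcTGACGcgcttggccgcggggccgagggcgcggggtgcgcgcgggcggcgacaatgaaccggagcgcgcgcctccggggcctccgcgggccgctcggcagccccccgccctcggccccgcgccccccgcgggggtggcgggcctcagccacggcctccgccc
Nr4a3: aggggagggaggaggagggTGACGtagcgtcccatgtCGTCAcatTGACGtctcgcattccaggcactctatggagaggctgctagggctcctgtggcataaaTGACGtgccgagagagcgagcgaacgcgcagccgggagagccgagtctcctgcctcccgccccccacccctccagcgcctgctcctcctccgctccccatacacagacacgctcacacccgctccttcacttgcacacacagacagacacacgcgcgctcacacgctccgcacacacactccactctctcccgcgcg
Each of the 3 windows held 4 half-sites. At least 1 was found in 20.8% of all 32851 promoter windows, and in 26.6% of the 64 windows of the 43 receptors that matched the table (Thra, Hnf4g, Nr3c1 and Nr5a1 did not). The share of windows with 4 half-sites was not counted, so these shares do not say how unusual 4 are. A match is a description of the sequence and not evidence of a bound factor.

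Nr4a1 (NUR77) was the most abundant receptor of sorted tumor cells. Its levels in control, control, sg492, sg492, sg495 and sg495 sorted libraries were 301.4, 323.2, 261.1, 285.0, 307.7 and 314.0 TPM. In bulk tumors they were 69.3, 91.2, 49.9, 75.9, 70.9 and 56.1 TPM, and in cultured cells 18.4, 17.1, 18.9, 19.1, 21 and 23.2 TPM. The 3 sample types did not overlap, and Nr4a1 was 14.6-fold higher in sorted than in cultured cells (log2 fold change 3.87, SE 0.0985, limma adjusted p = 1.9e-11) and lower in bulk than in sorted samples by a log2 fold change of -2.12 (SE 0.0985, adjusted p = 1.9e-09).

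Nr4a3 (NOR1) followed the same order of sample types. It was at 149.3, 167.9, 139.8, 114.3, 144.0 and 119.7 TPM in sorted tumor cells, at 61.4, 62.3, 64.3, 70.6, 68.4 and 58.8 TPM in bulk tumors, and at 11.3, 9.03, 10.8, 11.6, 8.32 and 8.54 TPM in cultured cells. The sorted libraries were 12.8-fold above the cultured ones (log2 fold change 3.68, SE 0.0725). Nr4a2 (NURR1) was lower throughout, at 20.5, 18.4, 20.4, 20.7, 24.6 and 11.2 TPM in sorted tumor cells. It was at 5.94, 5.36, 3.87, 9.30, 5.09 and 2.41 TPM in bulk tumors and between 1.84 and 2.26 TPM in cultured cells. Its sorted libraries also lay above all bulk and cultured libraries, by a log2 fold change of 2.72 (SE 0.21) over cultured cells.

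A list of 10 other immediate early genes (Fos, Fosb, Fosl1, Jun, Junb, Egr1, Egr2, Ier2, Atf3 and Btg2) was added after the Nr4a values were seen. The sum of the list followed the same order. It was between 895 and 1630 TPM in sorted tumor cells, between 120 and 186 TPM in bulk tumors and between 57.7 and 78.7 TPM in cultured cells. Fosl1 did not follow it, at 1.00 to 1.70 TPM in bulk tumors and 0.26 to 1.09 TPM in sorted tumor cells, and was too low to be tested. Of these genes 9 of 9 tested were called higher in sorted than in cultured samples, where 14.6% of all genes were. The same 9 were called lower in bulk than in sorted samples, where 4.31% of all genes were. Egr2, at most 0.23 TPM in cultured cells and 1.16 to 2.62 TPM in bulk tumors, passed the filter only through the sorted libraries. Its calls are therefore a description and support nothing. Because the list was added after the Nr4a values were seen, its counts are descriptions as well. Only the sorted cells had passed through 1 h of collagenase digestion at 30 °C and magnetic depletion of stromal cells. The effect of growth in a tumor and that of the preparation on these genes thus cannot be told apart in the comparison with cultured cells. The same limit holds for Rora, the REV-ERB genes and every other comparison of sorted with cultured cells given below.

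Rora, an activator of clock and lipid genes, was at 17.7, 17.3, 23.2, 17.8, 16.7 and 19.8 TPM in sorted tumor cells, in the order used above. In bulk tumors it was at 5.38, 5.64, 5.58, 6.40, 7.08 and 5.55 TPM. The sorted libraries lay above all bulk and cultured libraries, by a log2 fold change of 1.87 over cultured cells (SE 0.0834, adjusted p = 1.5e-09), and the bulk tumors below them by -1.51 (SE 0.0834, adjusted p = 1.1e-08). The REV-ERB receptors, which repress through the same DNA elements as Rora, were higher in sorted tumor cells as well. Nr1d1 (REV-ERBα) had lowest, median and highest values of 9.93, 11.9 and 14.9 TPM there, against 4.82, 5.77 and 7.29 TPM in bulk and 7.51, 7.72 and 9.83 TPM in cultured samples. Its log2 fold change was -0.91 from sorted to bulk samples and, without reaching 1.5-fold, 0.49 between sorted and cultured samples. Nr1d2 (REV-ERBβ) was at 23.5, 26.7 and 34.0 TPM in sorted, 14.3, 16.2 and 17.2 TPM in bulk and 15.6, 17.1 and 17.5 TPM in cultured samples, and its log2 fold changes were -0.73 from sorted to bulk and 0.64 between sorted and cultured samples. Nr1d1 and Thra overlap by 1075 bases on opposite strands, and the strand setting of the counting is not given in the sources used here.

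**Figure D3:**
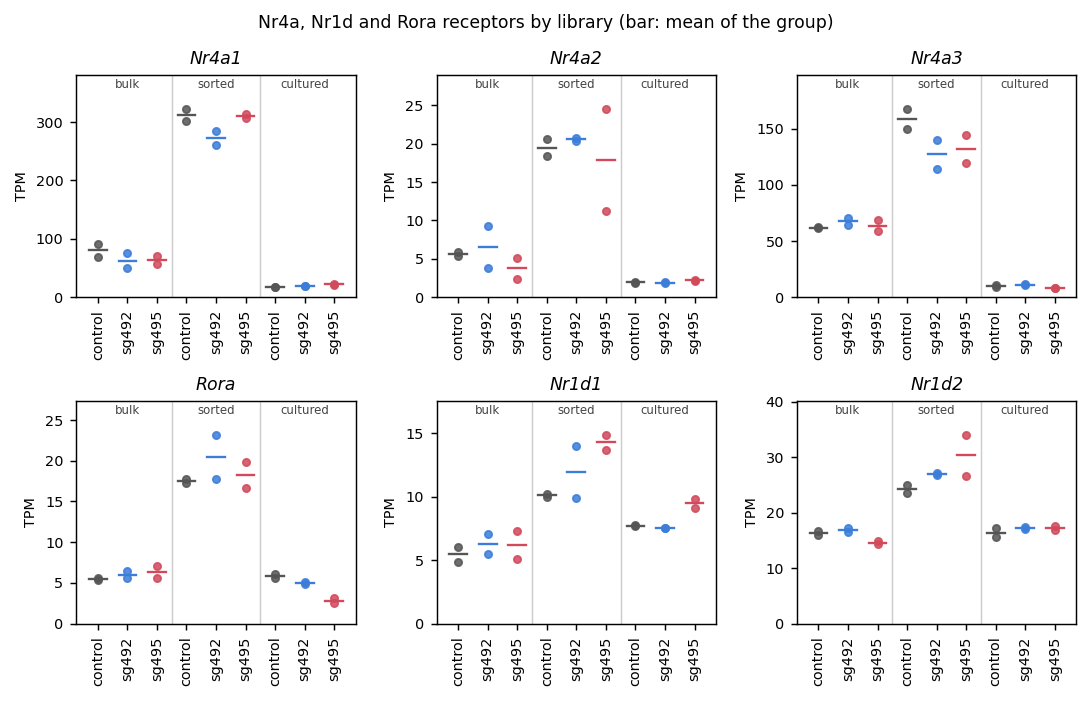
TPM of Nr4a1, Nr4a2, Nr4a3, Rora, Nr1d1 and Nr1d2 (y axis, starting at 0) by group (x axis) in the 3 sample types, with a point per library and a bar at the group mean. The 6 sorted libraries lie above all 12 others for each gene, and Rora is lowest in the 2 cultured sg495 libraries.

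Between sorted and cultured cells, 12 of 25 receptors were called, or 48.0% against a background of 23.6% (14.6% higher and 8.99% lower in sorted tumor cells), and 15 had libraries that did not overlap, as did 39.9% of all genes. The 7 higher in sorted tumor cells were the 3 Nr4a genes, Rora, Nr1d2, Vdr (log2 fold change 0.61, admitted to the test by its bulk and sorted levels) and Nr6a1 (0.59). The 5 lower ones were Nr1h4 (-0.82), Nr2f2 (-0.79), Ppard (-0.66), Rxra (-0.63) and Nr2f6 (-0.63). Rxra was at 24.1, 26.7 and 32.1 TPM in sorted, 39.6, 43.1 and 44.1 TPM in cultured and 19.1, 21.8 and 24.1 TPM in bulk samples. Ppard was at 26.6, 28.7 and 32.7 TPM, 41.7, 45.7 and 52.0 TPM, and 29.8, 31.6 and 39.3 TPM in the same order. The sorted and cultured libraries of Rxra, Ppard, Nr2f2 and Nr1h4 did not overlap, whereas those of Nr2f6 did. Without the sg492 libraries, an alternative chosen after seeing the data, 8 receptors were called, and Vdr, Nr6a1, Rxra and Nr2f2 were not. Near the 1.5-fold limit, the call of Nr6a1 was lost without any 1 of cultured control replicate 2, cultured sg492 replicate 2, cultured sg495 replicate 1, sorted control replicate 1, sorted sg492 replicate 2 or sorted sg495 replicate 1 (log2 fold change 0.42 to 0.76 over all single libraries left out). That of Vdr was lost without cultured control replicate 1, cultured sg492 replicate 2 or cultured sg495 replicate 1 (0.56 to 0.66), and that of Nr2f6 without cultured sg495 replicate 2 or sorted sg492 replicate 1 (-0.68 to -0.57). Nr1h2 was at 64.1, 75.8 and 102.5 TPM in sorted, 62.4, 64.8 and 69.8 TPM in bulk and 50.2, 58.9 and 61.6 TPM in cultured samples and stayed under 1.5-fold in both comparisons.

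Most of the tested genes known to respond to the glucocorticoid receptor were higher in sorted tumor cells. As a background for the counts given here, 14.6% of all genes tested were called higher and 8.99% lower in sorted than in cultured cells. In bulk tumors 4.31% were called lower than in sorted tumor cells. Of 7 tested, 6 were called above cultured cells (Dusp1 by 3.48, Sgk1 by 2.68, Per1 by 2.13, Klf9 by 2.01, Cebpd by 2.0 and Tsc22d3 by 1.69 on the log2 scale), and the same 6 were called lower in bulk than in sorted samples, while Nr3c1 itself was not called in either comparison (-0.17 and 0.09). Fkbp5, the other target tested, was called in neither comparison. It was between 57.1 and 61.9 TPM in cultured, 53.3 and 65.5 TPM in sorted and 57.3 and 71.7 TPM in bulk samples. Zbtb16, at most 0.18 TPM in these libraries, was too low to be tested. Dusp1, Per1 and Cebpd are also known as early stress and serum response genes. Of 6 clock genes tested against cultured cells, Nfil3 (2.25) and Cry1 (0.61) were higher and Dbp (-1.02) was lower. Of 11 coactivators Ppargc1a (2.41) and Crebbp (0.68) were higher, and of 9 corepressors Sin3a (-0.77) was lower. Of 5 retinoid genes Crabp2 (-3.03) and Aldh1a3 (-1.12) were lower, and of 7 LXR targets Abca1 (-0.83) and Mylip (-0.70) were lower. Of 6 PPAR targets Acadm (-0.83) was lower. Angptl4 (0.81) passed the filter only through the bulk tumors, so its higher value in sorted tumor cells is a description and supports nothing. Abcg1 among the LXR targets and Cd36 and Fabp4 among the PPAR targets also entered these totals only through the bulk tumors.

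To ask whether the guides moved the receptors, each guide was compared with control within a sample type. The targeted gene came first. Nr2f6, on chromosome 8 at 71374123-71381960 of GRCm38 (- strand), was at 31.9, 32.9, 26.6, 31.5, 18.6 and 22.4 TPM in the control, control, sg492, sg492, sg495 and sg495 libraries of cultured cells. In bulk tumors it was at 25.8, 25.2, 22.3, 23.3, 17.2 and 15.8 TPM. In sorted tumor cells it was at 20.3, 17.7, 19.8, 25.7, 10.6 and 12.2 TPM. Both sg495 libraries lay below both controls in every sample type. Both sg492 libraries lay below both controls in cultured cells and bulk tumors, where 41.5% and 42.5% of all genes lay outside both controls in either direction. Neither of these sg492 differences was called. In the sorted tumor cell libraries labelled sg492, Nr2f6 was not below control. The level of an edited transcript says nothing of its protein.

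Nr2f6 fell under sg495 in cultured cells, and the same comparison missed the threshold in tumors. Its log2 fold change was -0.64 in cultured cells (SE 0.114, limma adjusted p = 0.0213), -0.60 in bulk tumors (SE 0.0893, adjusted p = 0.0865) and -0.69 in sorted tumor cells (SE 0.157, adjusted p = 0.126). The size of the change did not differ detectably between sample types (bulk minus cultured 0.04, 95% interval -0.36 to 0.44, sorted minus cultured -0.05, -0.45 to 0.35). With sg492 it was -0.16 in cultured cells (95% interval -0.44 to 0.12), -0.16 in bulk tumors (-0.37 to 0.06) and 0.24 in sorted tumor cells (-0.14 to 0.62). Genes of chromosome 8 were lower as a group in the sg495 libraries: their median log2 fold change was -0.33 over 645 genes in cultured cells, -0.25 in bulk tumors and -0.34 in the sorted cells, against between -0.03 and 0.07 for the other chromosomes. After subtraction of the chromosome 8 median, the log2 fold change of Nr2f6 in cultured cells was -0.31 (adjusted p = 0.164) and no longer called. Leaving out control replicate 1, control replicate 2 or sg495 replicate 1 also ended the call in cultured cells (adjusted p up to 0.107). Nr2f6 overlaps Ocel1 on the opposite strand by 5239 bases.

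Neither paralog was called in any comparison of a guide with control. Nr2f2 (COUP-TFII) was at 42.8, 39.5, 53.2, 48.0, 32.9 and 36.2 TPM in cultured cells, in the same order of libraries. In bulk tumors it was at 14.8, 17.2, 14.9, 18.3, 18.1 and 20.6 TPM, and in sorted tumor cells at 19.8, 30.4, 23.1, 18.1, 26.3 and 25.6 TPM. In cultured cells the sg495 libraries lay below and the sg492 libraries above both controls. The log2 fold changes there were -0.25 for sg495 (95% interval -0.44 to -0.05, limma adjusted p = 0.106) and 0.29 for sg492 (0.10 to 0.49, adjusted p = 0.334). In bulk tumors they were 0.25 (-0.08 to 0.59) and 0.04 (-0.29 to 0.38), and in sorted tumor cells 0.07 (-0.44 to 0.59) and -0.25 (-0.76 to 0.26).

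Nr2f1 (COUP-TFI) was lower than Nr2f2 in every library, at 6.29, 6.12, 7.16, 7.45, 6.45 and 8.97 TPM in cultured cells. It was at 8.79, 7.46, 7.11, 6.73, 5.4 and 9.15 TPM in bulk tumors and at 4.98, 4.23, 9.42, 6.19, 3.93 and 6.71 TPM in sorted tumor cells. The sg495 log2 fold changes were 0.26 in cultured cells (95% interval -0.10 to 0.62), -0.18 in bulk tumors (-0.73 to 0.38) and 0.14 in sorted tumor cells (-0.55 to 0.83). Those of sg492 were 0.20 (-0.16 to 0.57), -0.20 (-0.76 to 0.36) and 0.63 (-0.06 to 1.32), the last with both sg492 libraries above both controls and a limma adjusted p of 0.709. The intervals of Nr2f1 reach 1.5-fold for both guides in bulk and sorted samples and for sg495 in cultured cells.

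**Figure D4:**
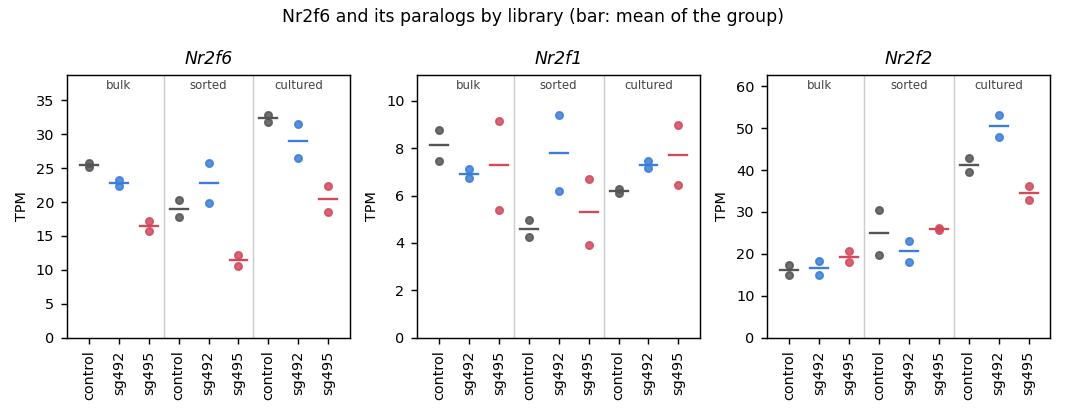
TPM of Nr2f6, Nr2f1 and Nr2f2 (y axis, starting at 0) by group (x axis) in the 3 sample types, with a point for each of the 18 libraries and a bar at the group mean. Both sg495 libraries are below both controls for Nr2f6 in each sample type, and no such order holds across the sample types for Nr2f1 or Nr2f2.

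Across all receptors, calls of a guide were confined to cultured sg495 cells. There, 2 of 23 receptors tested, Nr2f6 and Rora, were lower and 0 higher, or 8.70% called against a background of 2.77% of genes (2.03% lower and 0.733% higher). Nr2f6 is the gene that both guides target, so Rora was the only call beside the target. The share of 8.70% therefore shows no trend of the family. A total of 15 of the 23 had both sg495 libraries outside both controls, where 56.4% of all genes did, and 10 had an unadjusted p below 0.05 (background 27.8%). In sorted sg495 cells limma called 0 of 24 receptors (background 0.899%), with 3 at an unadjusted p below 0.05 (15.6%) and 11 outside both controls (49.4%). In bulk sg495 tumors it called 0 of 26 (background 0.0293%), with 4 at such a p (15.7%) and 13 outside both controls (45.9%). With sg492, it called 0 of 26 in bulk tumors (background 0%), with 1 at such a p (8.3%) and 7 outside both controls (42.5%). In sorted sg492 cells it called 0 of 24 (0.0388%), with 3 (7.13%) and 10 (40.3%) by the same counts, and in cultured sg492 cells 0 of 23 (0.05%), with 2 (10.5%) and 10 (41.5%). The control libraries are shared between the guides of a sample type.

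In cultured sg495 cells Rora had the largest fold change of the 23 receptors tested. In cultured cells it was at 6.03 and 5.62 TPM in the controls, 4.81 and 5.09 TPM under sg492 and, under sg495, 2.55 and 3.08 TPM. The sg495 libraries were the lowest of all 18 and lay below both controls, with a log2 fold change of -0.84 (SE 0.124, limma adjusted p = 0.0121), and that of sg492 was -0.20 (95% interval -0.50 to 0.10). In tumors and in cells sorted from them the sg495 log2 fold changes were 0.16 (-0.23 to 0.55) and 0.05 (-0.32 to 0.43). The difference between sample types was itself called: the sg495 effect exceeded that in cultured cells by 1.00 on the log2 scale in bulk tumors (SE 0.204, adjusted p = 0.03) and by 0.89 in sorted tumor cells (SE 0.204, adjusted p = 0.0319), with backgrounds of 1.76% and 2.51% of genes called. Leaving out control replicate 1, control replicate 2 or sg495 replicate 1 of the cultured cells ended the call in culture (adjusted p up to 0.0735), as did fitting all genes with no expression filter (adjusted p = 0.0515). The difference between bulk and cultured samples lost its call without bulk control replicate 2, bulk sg495 replicate 1 or any 1 of the 4 cultured control and sg495 libraries (adjusted p up to 0.133). That between sorted and cultured samples lost its call without any 1 of the 6 cultured libraries, either sorted control or sorted sg495 replicate 2 (adjusted p up to 0.127).

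**Figure D5:**
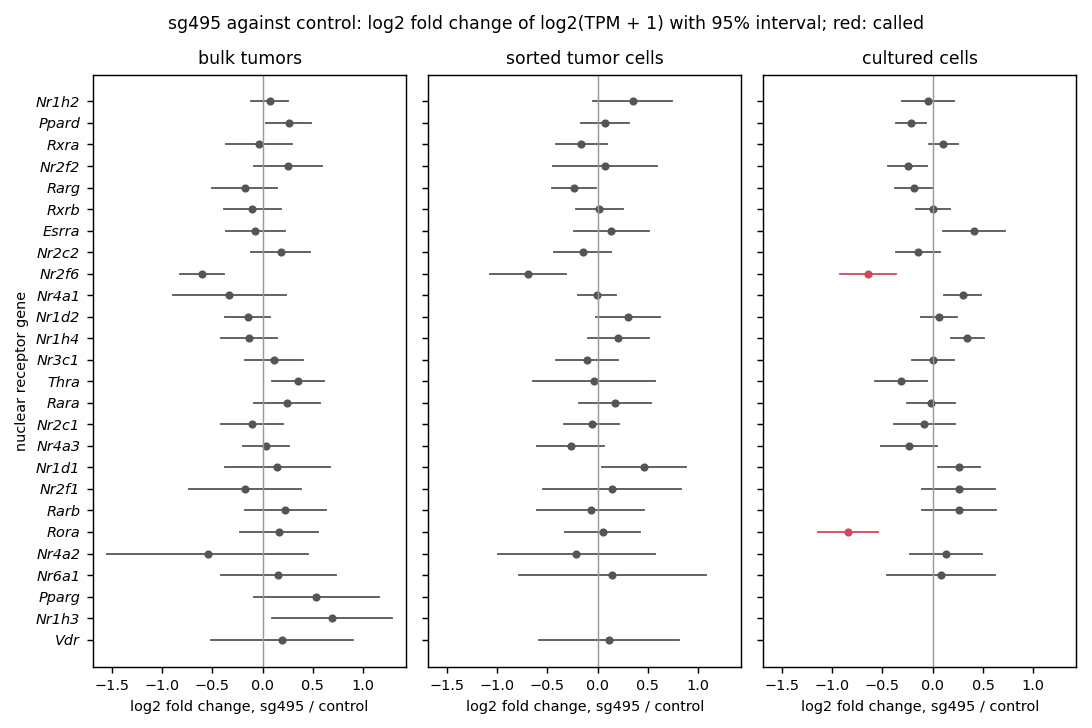
Log2 fold change of log2(TPM + 1) for sg495 against control (x axis) with its 95% interval (line), for each receptor tested (y axis), in a panel per sample type, with called receptors in red. Nr2f6 lies left of 0 in all 3 panels and Rora, at -0.84, only in cultured cells.

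Receptors short of a call in cultured sg495 cells included Nr1h4, which at 17.9 and 19 TPM lay above both controls with a log2 fold change of 0.35 (SE 0.0667, limma adjusted p = 0.0266), under the 1.5-fold limit. Esrra, at 35.3 and 35.9 TPM against 27.0 and 26.1 TPM, had a log2 fold change of 0.41 (95% interval 0.10 to 0.72, adjusted p = 0.0932). Nr4a1 (0.30, adjusted p = 0.0555) and Nr1d1 (0.27, adjusted p = 0.105) were above, and Ppard (-0.22, adjusted p = 0.0723) and Thra (-0.31, adjusted p = 0.118) below both controls. For Nr3c1 the log2 fold change was 0.00 (-0.20 to 0.21). In sorted tumor cells the sg492 libraries had Esrra at 0.44 (0.06 to 0.81, adjusted p = 0.653).

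In bulk sg495 tumors the host-associated receptors were above control. Nr1h3 had a log2 fold change of 0.69 (95% interval 0.09 to 1.29, limma adjusted p = 0.257) and Pparg of 0.54 (-0.09 to 1.16, adjusted p = 0.392), each with both sg495 libraries above both controls. Markers of several host cell types lay above control in the same libraries: 7 of 7 leukocyte, 8 of 9 macrophage, 7 of 8 fibroblast, 5 of 8 T cell and 2 of 2 adipocyte markers tested had both sg495 libraries above both controls, where 45.9% of all genes lay outside both, counting those above and those below together. Their median log2 fold changes were 0.95, 0.82, 0.77, 0.63 and 0.52, with no gene called by limma and 7, 8, 7, 3 and 1 genes at an unadjusted p below 0.05. Of 8 endothelial markers 2 lay above and 1 below both controls (median 0.18), of 6 skeletal muscle markers 2 lay above (median 0.40), and of 2 keratinocyte markers 0 did (median -0.14). The summed macrophage level was between 939 and 996 TPM against 468 and 647 TPM in control. With sg492 the medians of the leukocyte, macrophage, fibroblast and adipocyte markers were 0.61, 0.48, 0.42 and 0.75. Those of the T cell, endothelial, skeletal muscle and keratinocyte markers were 0.20, 0.13, -0.05 and 1.83, with 0 of 8 T cell markers outside both controls. Nr1h3 was at 0.38 (-0.22 to 0.98), and its sg492 values (3.55 and 4.74 TPM) overlapped control (3.73 and 2.25 TPM). The sg492 values of Pparg (1.79 and 2.39 TPM) lay on both sides of control (2.02 and 2.02 TPM). The part of these cells in the receptor values was not tested.

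Genes of the receptor pathways were called with a guide only in cultured sg495 cells. Of 6 LXR targets tested there, 2 fell and 0 rose, where 2.03% of all genes were called lower and 0.733% higher. All 6 were below both controls, whereas the 56.4% of all genes outside both controls counts those above as well as those below. Their values had a median log2 fold change of -0.28 against 0.00 for all genes. Apoe, an apolipoprotein, was at 871.6 and 853.0 TPM in the controls, 857.7 and 864.5 TPM under sg492 and, under sg495, 524.5 and 533.4 TPM (log2 fold change -0.70, SE 0.03, limma adjusted p = 0.000691). Scd1, the stearoyl-CoA desaturase, was at 103.3 and 94.1 TPM in the controls, 96.9 and 95.9 TPM under sg492 and, under sg495, 58.2 and 56.1 TPM (-0.78, SE 0.0566, adjusted p = 0.00189). Nr1h2, the LXR gene above 1 TPM in these cells, had a log2 fold change of -0.05 (95% interval -0.30 to 0.21), and Nr1h3 was not detected above 0.13 TPM. The sg495 effect was higher in bulk than in cultured samples for Scd1 (0.98, adjusted p = 0.02) and higher in sorted than in cultured samples for Apoe (0.69, adjusted p = 0.011).

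Of 6 clock genes tested in cultured sg495 cells, 1 fell, against the same background. Dbp, an output transcription factor of the clock that is driven by CLOCK and BMAL1, was at 9.45 and 11.1 TPM in the controls, 12.7 and 12.1 TPM under sg492 and, under sg495, 6.27 and 5.46 TPM (log2 fold change -0.71, SE 0.111, limma adjusted p = 0.0141). Arntl, the BMAL1 gene that ROR activates and REV-ERB represses, was at -0.36 (adjusted p = 0.11). No other pathway gene passed both limits there, and the 2 of lowest p in each remaining list were, among coactivators, Prmt1 (0.11) and Carm1 (0.12), and, among corepressors, Tbl1xr1 (-0.49, adjusted p = 0.0494) and Lcor (0.34). Among ERR targets they were Idh3a (0.17, adjusted p = 0.0316) and Mdh2 (0.13, adjusted p = 0.0459), both enzymes of the citric acid cycle, and among glucocorticoid receptor targets Klf9 (-0.51, adjusted p = 0.0596) and Tsc22d3 (0.17). Among PPAR targets they were Cpt1a (-0.28, adjusted p = 0.0347) and Plin2 (-0.20), and among retinoid genes Aldh1a3 (0.31) and Rdh10 (0.23). Hsd11b1, the only ligand enzyme tested, was at 0.09.

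In bulk sg495 tumors limma called 0 of the 63 genes tested from the 9 pathway lists (background 0.0293% of all genes). Of these, 5 had an unadjusted p below 0.05 (background 15.7%). In sorted sg495 cells it called 0 of 56 (background 0.899%), with 3 at such a p (15.6%). In bulk tumors the genes given here from the 2 of lowest unadjusted p in each list were Cyp27a1 (1.24, adjusted p = 0.0879), which makes an oxysterol ligand of LXR, and Hsd11b1 (0.62), which activates glucocorticoids, among ligand enzymes, and Abcg1 (0.64) and Apoe (-0.13) among LXR targets. They were Cd36 (0.41) and Plin2 (0.27) among PPAR targets, Cyp26b1 (0.47) among retinoid genes, and Ncor1 (0.19) and Lcor (0.22) among corepressors. Crebbp (0.37) and Prmt1 (-0.11), Cycs (-0.05), Sgk1 (0.18) and Cebpd (0.25), and Clock (0.28) and Tef (0.22) were those of the coactivators, ERR targets, glucocorticoid receptor targets and clock genes. In sorted tumor cells they were Acadm (-0.29) and Cpt1a (-0.18) among PPAR targets, Nfil3 (0.37) and Arntl (0.38) among clock genes, and Cycs (0.19) among ERR targets. Scd1 (-0.31) and Lpcat3 (-0.06), Cyp26b1 (-0.49) and Crabp2 (0.58), and Per1 (0.22) and Dusp1 (0.44) were those of the LXR targets, retinoid genes and glucocorticoid receptor targets. Ncoa3 (-0.27) and Ncoa6 (-0.14), Tbl1xr1 (-0.55), and Cyp27b1 (-0.16) were those of the coactivators, corepressors and ligand enzymes. These are log2 fold changes, each with a limma adjusted p above 0.05.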

How the data were processed

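Poly(A) RNA of B16F10 tumors, of tumor cells sorted from them and of cultured cells was sequenced from a single end, at a stated 23 to 31 M reads per library. The authors trimmed reads with Cutadapt 2.3, aligned them to mm10 with STAR 2.7.0d, quantified genes with RSEM 1.3.1 and Ensembl 84, and deposited TPM. The estimated counts behind the authors' DESeq2 test were not used here, and a single library's depth is unknown, so no counting interval is given.

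Receptors were found by symbol, and their members, lists and named genes were chosen with earlier results of these data known. For each sample type, log2(TPM + 1) of genes averaging 1 TPM or more was fitted with limma 3.58.1 (R 4.3.3, eBayes with trend), and all p-values are 2-sided and Benjamini-Hochberg adjusted over all genes tested, unless called unadjusted. Calls needed an adjusted p below 0.05 and 1.5-fold. Sample types and interactions were fitted on 18 libraries, and anti-PD1 against IgG on 5. Fold changes on the log2(TPM + 1) scale understate those of low genes. For 2 against 2 libraries the smallest p of an exact permutation test is 0.333. The procedure was tested on simulated data.

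Values are given for Nr2f6, its paralogs, the candidate receptors, receptors called with a guide, host-associated receptors with a bulk mean of at least 2 TPM and melanoma-expressed receptors with a cultured mean of at least 10 TPM, by library or as lowest, median and highest, and for pathway genes called with a guide or of the 2 lowest p for sg495 per list. A few pathway genes that this rule names are not reported here. The Nr4a genes, Rora in vivo, Vdr and other receptors were detailed after their values were seen. Gene positions came from GENCODE M21 (GRCm38) and promoters from RefSeq (GRCm38.p6).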

Additional observations from a re-analysis of the deposited data

Results flagged for a closer look

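The effect of sg495 on Rora differed between sample types in 2 tests of the difference itself. On the log2 scale the effect in cultured cells was exceeded by 1.00 in bulk tumors (SE 0.204, limma adjusted p = 0.03) and by 0.89 in sorted tumor cells (SE 0.204, adjusted p = 0.0319). Both cultured sg495 libraries (2.55 and 3.08 TPM) lay below both cultured controls (6.03 and 5.62 TPM), whereas in sorted tumor cells the sg495 values (16.7 and 19.8 TPM) lay on both sides of the controls (17.7 and 17.3 TPM). The 2 tests share the cultured libraries. The first call was lost in 6 of 18 fits that left out 1 library (adjusted p up to 0.133), with quantile normalization and with a replicate block, and the second in 9 of 18 (adjusted p up to 0.127), with those 2 settings and with no expression filter. No cause was tested.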

How the results depend on the processing

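Over all alternatives, 1078 gene values kept their direction and their side of the threshold, 50 lost a call, 2 gained one and 12 reversed. Of the counts of receptors, which include those of the classes, 272 stayed close to the main count, 24 were lower, 8 were higher and 2 moved. A count that stayed close could still have lost calls. That of sorted against cultured samples fell from 12 to 8 in an alternative without being among the lower ones. The number of receptors called with sg495 was 1 (Nr2f6) in bulk tumors and 1 (Nr2f6) in sorted tumor cells in a fit of all 18 libraries. In cultured sg495 cells it was 0 with no expression filter, 1 with a mean of at least 5 TPM, 1 with chromosome 8 centered, and 0 to 2 when single libraries were left out. With no fold threshold 17 receptors were called between bulk and sorted samples, 21 between sorted and cultured samples and 2 in the difference of the sg495 effect between bulk and cultured samples. That last count was 0 with a replicate block and 0 to 2 without single libraries, and for sorted minus cultured it was 0 with no expression filter, 0 with quantile normalization, 0 with a replicate block and 0 to 1 without single libraries. The class of other expressed receptors held 3 at a threshold of 0.5 TPM (Vdr, Nr1i2 and Esr1) and 2 at a threshold of 2 TPM (Nr4a2 and Nr6a1).

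Among single genes, the log2 fold change of Nr2f2 in bulk sg492 tumors reversed to -0.025 with median-of-ratios scaling and to -0.051 with quantile normalization, and ranged from -0.096 to 0.185 when single libraries were left out. The sign of 7 other values also changed on leaving out a library: Nr2f1 (-0.51 to 0.16) and Esrra (-0.185 to 0.039) in bulk sg495 tumors, Nr2f1 (-0.18 to 0.46) and Nr2f2 (-0.22 to 0.37) in sorted sg495 cells, Nr2f2 (-0.54 to 0.045) in sorted sg492 cells, Nr3c1 (-0.097 to 0.104) in cultured sg495 cells and Esrra (-0.143 to 0.257) in cultured sg492 cells. None of these was called.

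The replicate numbers of the labels did not pair the samples: deviations of libraries with the same number correlated by -0.13 to 0.05 across genes. With a replicate block, 2 receptors (Nr1h3 and Nr4a2) were called between anti-PD1 and IgG libraries. With the sg492 numbers of the bulk tumors exchanged, a pairing chosen after seeing the data, 0 receptors were called. The cause of these changes was not tested. Depth is unknown, and values near 1 TPM are the least certain.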
